A study of Homo sapiens with 4 samples.

Results

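Silencing of CDCA8 in Huh7 cells was described from a pair of RNA sequencing libraries, one from cells treated with CDCA8siRNA (CDCA8-1siRNA in the study's text) and one from cells treated with the control NCsiRNA. Huh7 is an established human hepatocellular carcinoma cell line that keeps many products of the hepatocyte. The series holds 4 libraries, the other two being the same pair of treatments in the liver cancer line Huh1. In the study's methods all cells received 15 nM siRNA with a lipid reagent, and RNA was taken 48 h later, so both groups carry the transfection and differ in the siRNA. There was 1 library per condition. The spread between cultures could therefore not be measured, and no test or p-value is given. A single siRNA sequence was used, and the loss of CDCA8 and any other action of that sequence cannot be told apart.

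CDCA8, also called Borealin, is a subunit of the chromosomal passenger complex, in which Aurora B kinase (AURKB) is carried by INCENP, survivin (BIRC5) and Borealin. The complex sits at centromeres early in mitosis, where it releases wrongly attached microtubules, and then moves to the spindle midzone, where it takes part in cytokinesis. Cells that lose it missegregate chromosomes or fail to divide. Replication-dependent histone genes, DNA replication factors and mitotic genes are each transcribed in their own window of the cell cycle, and hepatocyte products such as albumin are kept up by a small network of liver transcription factors.

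Each library gave 1 value for each of 18398 RefSeq transcripts. The unit is not named in the files, and from the values it is RPKM, a read number divided by the length of the transcript and by the depth. Genes with 1 RPKM or more in at least 1 of the Huh7 libraries were kept, which left 11565 genes. The difference of a gene was its log2(RPKM + 1) with CDCA8siRNA minus that with NCsiRNA, and a gene was called when this difference was at least 2-fold, that is 1 or more in size. The added 1 makes the difference of a low gene smaller than the ratio of its values. From the value of a single read, the Huh7 libraries held 12197606 reads (NCsiRNA) and 12266642 reads (CDCA8siRNA). The SD that read counting alone gives a difference had a median of 0.084 over the genes kept. It is given below as the counting SD, and it holds no variation between cultures.

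With CDCA8siRNA, 101 genes were at least 2-fold higher (0.873% of the genes kept) and 81 were at least 2-fold lower (0.7%), in all 182 genes (1.57%). Most transcripts stayed close to the control. The differences of 10060 genes (87.0%) were smaller than 0.5 in size, the median was 0.03, the SD was 0.35, and the 5th and 95th percentiles were -0.50 and 0.60. Values above 0 were held by 54.5% of the genes. The called genes differed in level as well as in sign. The median of the larger value was 13.6 RPKM over the higher genes and 26.3 RPKM over the lower genes, and 14 of the 101 higher genes passed the filter through the CDCA8siRNA library alone, against 8 of the 81 lower genes through the NCsiRNA library alone. The largest counting SD of a called gene was 0.44 (HIST1H2BJ). A difference of 1 or more thus had to lie more than 2 counting SDs from 0, and no support is drawn from this. The scatter of all genes shows the narrow band and the genes outside it.

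**Figure D1:**
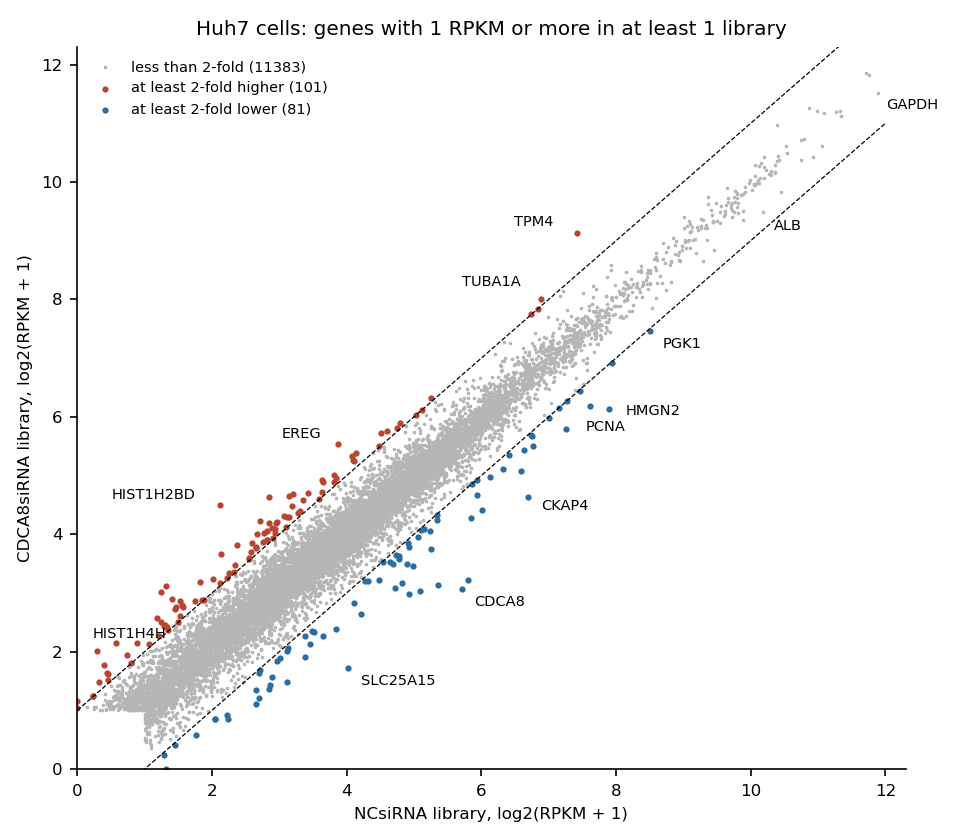
Each point is a gene of Huh7 cells with 1 RPKM or more in at least 1 library, placed by log2(RPKM + 1) with NCsiRNA (horizontal) and with CDCA8siRNA (vertical), and the dashed lines mark a 2-fold difference. The 101 higher genes (red) lie mostly at low and middle levels, TPM4 lies well above the line at a high level, and CDCA8 is the gene farthest below the band of 81 lower genes (blue).

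The identity of the cells was checked against marker genes. Of 12 hepatocyte markers all passed the filter, with albumin (ALB) at 1166 to 721 RPKM and transferrin (TF) at 628 to 403 RPKM. Endothelial markers were at or near 0, with CDH5 and TEK listed at 0 in both libraries and VWF, KDR and CLEC4G at 0.03 RPKM or less. Of 9 leukocyte markers only CD68 and lysozyme (LYZ) passed the filter, and PTPRC, the pan-leukocyte antigen CD45, was at 0.0769 to 0.417 RPKM. LYZ rose from 11.1 to 23.4 RPKM (difference 1.01 ± 0.11). Of 8 fibroblast and stellate cell markers 5 passed the filter, among them LUM (143 to 190.0 RPKM), COL1A1 (107 to 125 RPKM) and COL1A2 (31.4 to 56.9 RPKM), which were thus abundant in the control library as well, while THY1 stayed under 0.01 RPKM in both. All 5 were above 0, with a median of 0.41. Of the 5, 1 passed the filter through the CDCA8siRNA library alone and so had to be above 0. Over all 8 markers, kept or not, 7 were above 0 and 1 below, with a median of 0.28. The list as a whole summed to 284 RPKM with NCsiRNA and 378 RPKM with CDCA8siRNA. Both libraries came from cultures of the Huh7 line, and these markers alone do not show that fibroblasts or stellate cells were present. Whether such cells had a part in any result was not tested. In bulk RNA, fewer cells of a kind and less RNA per cell cannot be told apart, which applies to every gene group below.

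CDCA8 itself (chr1:37692418-37709719 in GRCh38, plus strand) fell from 51.5 to 7.36 RPKM, which left 14.3% of the control value. Its difference of -2.65 ± 0.092 (counting SD) was the lowest of all genes kept, and it rested on about 1549.7 and 223 reads. In Huh1 the gene went from 24.1 to 5.86 RPKM, a difference of -1.87. Its partners in the complex were not called. AURKB, the kinase of the complex, went from 68.5 to 45.6 RPKM (-0.58 ± 0.07), and INCENP, the scaffold, from 19.8 to 15.3 RPKM (-0.35 ± 0.069). BIRC5, the survivin subunit that binds Borealin directly, went the other way, from 39.3 to 67.2 RPKM (0.76 ± 0.05). Kinases that act with the complex at centromeres lay below 0, with BUB1 at -0.47, PLK1 at -0.62 and haspin (GSG2) at -0.09. Over the 11 measured genes of the complex and its recruitment, 9 were below 0, CDCA8 alone was called, and the median was -0.11, beside 0.03 over all genes. The study names 22 of the genes measured here, and 3 of them were called higher and 3 lower, with a median of -0.20. Over all genes kept 0.873% were called higher and 0.7% lower. CDKN2B and CYR61 were among the higher ones, and PCNA, SLBP and CDCA8, the target of the siRNA, were the lower ones. The study named part of the genes, such as PCNA, SLBP and CYR61, from these same samples, so their count is no independent evidence.

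The 15 genes with the lowest differences encode proteins of separate compartments. The cochaperone FKBP4 (chr12:2794953-2805423), which binds HSP90 in steroid receptor complexes, fell from 54.5 to 8.32 RPKM (-2.57 ± 0.072). SLC25A15 (chr13:40789412-40810111), the mitochondrial ornithine carrier of the urea cycle, fell from 15.3 to 2.3 RPKM (-2.3 ± 0.17), and the endoplasmic reticulum membrane protein CKAP4 (chr12:106237877-106304279) fell from 103 to 23.8 RPKM (-2.07 ± 0.051). VTA1 (chr6:142147162-142224689), a cofactor of the VPS4 ATPase that takes ESCRT-III filaments apart, fell from 33.1 to 7.19 RPKM (-2.06 ± 0.057), and the membrane protein TMEM176B (chr7:150791285-150801360) from 39.9 to 7.82 RPKM (-2.22 ± 0.12). Beside CDCA8, these 5 were the only genes kept that lost more than 4-fold on the log2(RPKM + 1) scale.

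Chromatin and nuclear envelope genes were also among the 15. HMGN2 (chr1:26472450-26475972), a nucleosome-binding protein with many processed pseudogenes that may share its reads, fell from 238 to 69.1 RPKM (-1.77 ± 0.051), the largest loss in RPKM among the 15. SETD8, the enzyme that adds the first methyl group to histone H4 lysine 20, fell from 25.4 to 7.44 RPKM (-1.64 ± 0.087). LMNB1, the lamin B1 of the nuclear lamina, fell from 63.2 to 20.4 RPKM (-1.59 ± 0.059), and CCNC, the cyclin of the Mediator kinase module, from 56.8 to 18.4 RPKM (-1.57 ± 0.067). The rest were the calcium-dependent lipid-binding protein CPNE3 (29.4 to 6.94 RPKM), the V-ATPase assembly factor CCDC115 (17.6 to 5.26 RPKM) and 3 liver or ligand genes. GC, the vitamin D-binding plasma protein, fell from 27.3 to 7.98 RPKM, the activin subunit INHBB from 7.7 to 1.81 RPKM, and NR0B2, the nuclear receptor SHP that restrains bile acid synthesis, from 5.29 to 1.15 RPKM.

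Among the 15 highest differences, 5 were histone genes, described below. The most abundant was TPM4 (chr19:16067021-16103005), a tropomyosin that wraps actin filaments, which rose from 169.5 to 563 RPKM (1.73 ± 0.022), a gain of RPKM larger than that of any other called gene. EREG (chr4:74365143-74388751), an EGF receptor ligand, rose from 13.6 to 45.5 RPKM (1.67 ± 0.056), and FGF19, the hormone that signals to hepatocytes through FGFR4, rose from 8.21 to 24.7 RPKM (1.48 ± 0.097). HABP4, an RNA-binding protein of the SERBP1 family, rose from 6.22 to 23.8 RPKM (1.78 ± 0.10), the opioid growth factor receptor OGFR from 5.56 to 17.6 RPKM (1.51 ± 0.11) and the glutaminyl cyclase QPCT from 4.19 to 13.1 RPKM (1.44 ± 0.15). Low genes completed the group, with the secreted pattern recognition protein PTX3 at 1.37 to 7.07 RPKM, the GDP dissociation inhibitor ARHGDIB at 3.37 to 11.7 RPKM and the phospholipase PLA1A at 1.66 to 6.43 RPKM. The paired values of these genes are drawn by library.

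**Figure D2:**
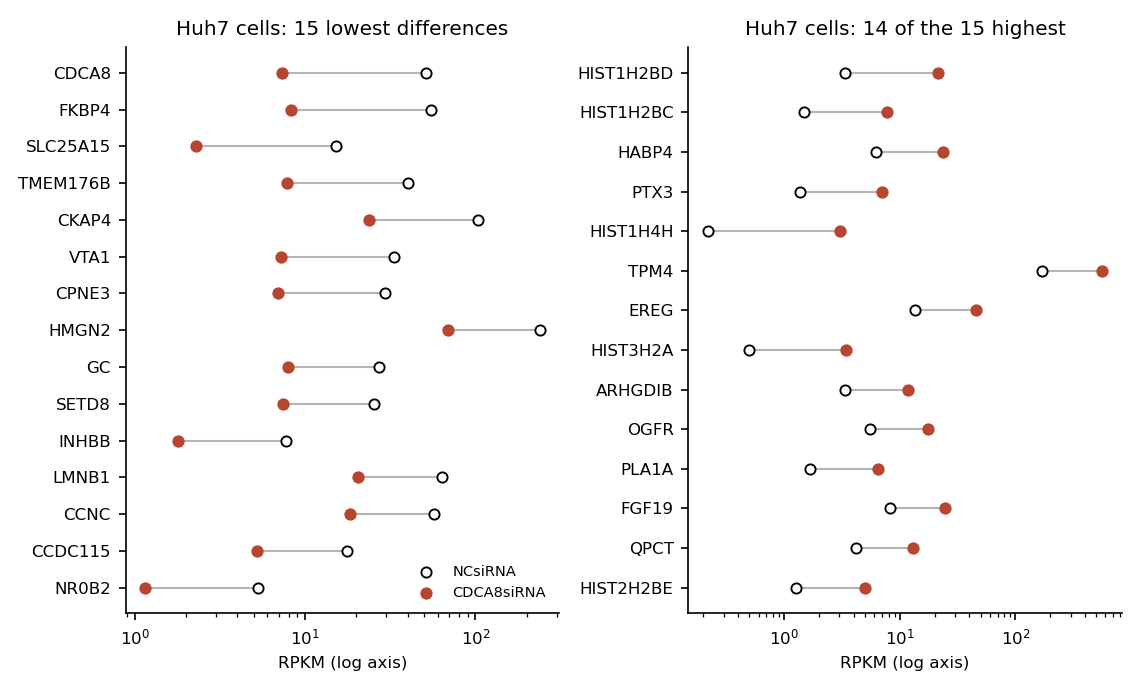
RPKM on a log axis of the 15 genes with the lowest difference and 14 of the 15 with the highest difference in Huh7 cells, with NCsiRNA (open) and CDCA8siRNA (filled), 1 library each. CDCA8 falls from 51.5 to 7.36 RPKM at the top left, and on the right TPM4, from 169.5 to 563 RPKM, lies far above the other genes.

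Just inside the 2-fold line lay LOXL4 (difference -1.0044), ID2 (-1.0026), GNG2 (1.0023) and NOLC1 (1.0034), and just outside it DTD1 (-0.9998), IL11 (-0.986), GPR176 (0.996) and ZNF257 (0.997). A call in this range turns on a few percent of the RPKM value. LY96 and C2orf82 were called higher although they are listed at 0 with NCsiRNA, and KRTAP19-5 was called lower although it is listed at 0 with CDCA8siRNA. No fold is given for these 3, whose larger values were 1.06, 1.23 and 1.5 RPKM.

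In Huh1, CDCA8siRNA gave fewer calls, 35 genes higher (0.32% of 10940 genes kept there) and 19 lower (0.174%), in all 54 (0.494%). The Huh7 calls were read in Huh1 as a description, gene by gene. Of the 101 higher genes, 81 passed the filter in Huh1, and 71 of them were above 0, 10 were below 0 and 11 were called higher there as well. Their median difference was 0.51 in Huh1 and 1.15 in Huh7. Of the 81 lower genes, 70 passed in Huh1, with 66 below 0, 4 above 0 and 10 called lower, and medians of -0.56 and -1.20. The background over the 10357 genes kept in both lines was 54.8% above 0 and a median of 0.02 in Huh1. All 70 lower genes had the larger difference in Huh7, as had 75 of the 81 higher genes. Since the genes were chosen for large values in Huh7, a smaller value in Huh1 is not a finding.

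Individual genes departed from this pattern. TPM4 went from 19.1 to 77.3 RPKM in Huh1, a difference of 1.96 that was larger than in Huh7. The caveolar coat protein CAV1 had 1.16 in Huh7 and 1.45 in Huh1, the matricellular protein CYR61 1.01 and 1.35, and the laminin-related netrin NTN4 1.02 and 1.44. Other called genes were hardly read in Huh1. ARHGDIB, HIST3H2A and the receptor chaperone RAMP1 were listed at 0 in both Huh1 libraries, PTX3 was under 0.01 RPKM there, and the Cerberus gene CER1, which fell in Huh7 from 9.46 to 2.77 RPKM, was also at 0 in Huh1. IGF2, the fetal growth factor, fell from 142 to 69.8 RPKM in Huh7 and was at 0.04 RPKM or less in Huh1. LDHB, the lactate dehydrogenase B subunit, showed the reverse, with 2.68 to 6.38 RPKM in Huh7 and 403 to 432 RPKM in Huh1. SPP1, or osteopontin, was at 13.1 to 28.6 RPKM in Huh7 and 2107 to 2039 RPKM in Huh1. The plot of both lines sets the 151 genes kept in both side by side.

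**Figure D3:**
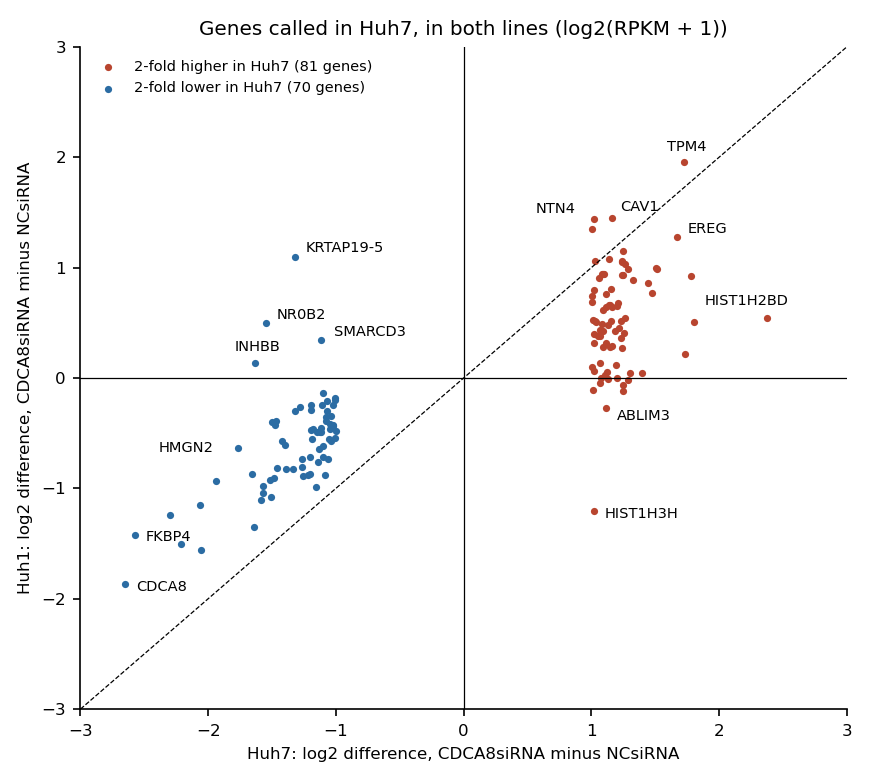
Log2 difference (CDCA8siRNA minus NCsiRNA, on log2(RPKM + 1)) in Huh7 (horizontal) and in Huh1 (vertical) of the genes called in Huh7 and kept in Huh1, 81 higher (red) and 70 lower (blue), with the line of equal differences dashed. Lower genes lie between the dashed line and 0 except KRTAP19-5, NR0B2, SMARCD3 and INHBB above 0, and TPM4, CAV1, NTN4, CYR61 and NOSTRIN are the higher genes above the dashed line.

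Clustered histone genes encode the replication-dependent histones, whose mRNAs normally end in a stem-loop instead of a poly(A) tail and are made in S phase. Whether the libraries were limited to poly(A) RNA is not stated here. The values do not tell stem-loop forms of these mRNAs from polyadenylated ones, and which form rose was not tested. Of 63 such genes in the files 12 were called higher and none lower, where 0.873% of all genes kept were called higher. Of the 12, 5 passed the filter through the CDCA8siRNA library alone, where they are high and so had to differ, and no support is drawn from the count. HIST1H2BD (chr6:26158146-26171349) rose from 3.33 to 21.5 RPKM (2.38 ± 0.22), the highest difference of all genes. HIST1H2BC rose from 1.5 to 7.72 RPKM (1.8 ± 0.32), HIST1H4H from 0.219 to 3.05 RPKM (1.73 ± 0.38) and HIST3H2A from 0.496 to 3.45 RPKM (1.57 ± 0.27). The most abundant member was HIST1H2BK, which rose from 31.5 to 64.7 RPKM (1.01 ± 0.14), and the linker histone HIST1H1C rose from 6.83 to 17.6 RPKM (1.25 ± 0.21). HIST1H2AC, HIST2H2BE, HIST1H2BG, HIST1H2BJ, HIST1H2AD and HIST1H3H were the other 6. Members of the family are near-identical copies, so reads can be shared between them and a value of a single copy is uncertain.

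Most of the family stayed under the filter. Of the 63 genes, 22 passed the filter, and 13 of these passed through the CDCA8siRNA library alone, none through the NCsiRNA library alone. Their median of 1.02 is thus partly set by the filter, and no support is drawn from it. Of the 9 genes at 1 RPKM or more with NCsiRNA, 8 were above 0, and HIST1H2BH went from 2.31 to 1.55 RPKM. Over all 63 genes, 31 were above 0, 21 below and 11 at 0 in both libraries, with a median of 0, and their summed level was 70.6 RPKM with NCsiRNA and 173 RPKM with CDCA8siRNA. In Huh1 the sums were 217 and 220.5 RPKM. HIST1H2BD went from 7.78 to 11.8 RPKM in Huh1 (0.55), HIST1H2BK from 108 to 99.9 RPKM (-0.11) and HIST1H1C from 45.7 to 43.9 RPKM (-0.06). The control values in Huh1 were above those in Huh7 for these genes, and with CDCA8siRNA HIST1H1C and HIST1H2BK in Huh7 remained below either Huh1 value.

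**Figure D4:**
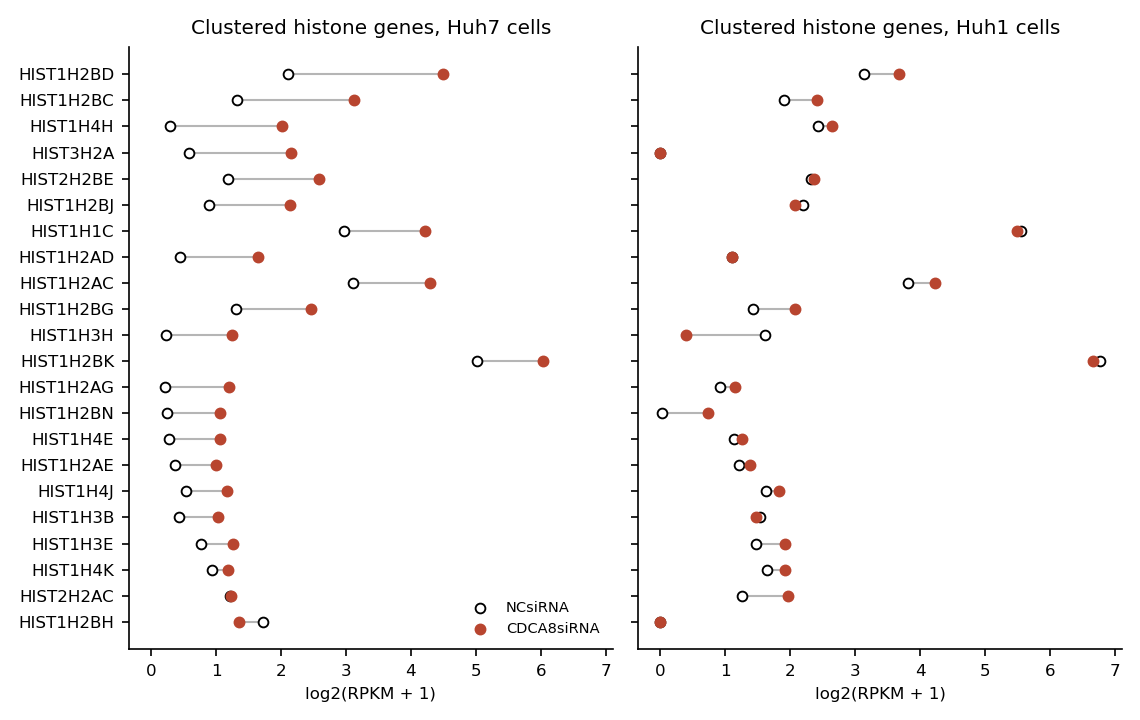
Log2(RPKM + 1) of the 22 clustered histone genes kept in Huh7, in Huh7 (left) and in Huh1 (right), with NCsiRNA (open) and CDCA8siRNA (filled), 1 library each, ordered by the difference in Huh7. In Huh7 every gene but HIST1H2BH lies higher with CDCA8siRNA, while in Huh1 the points of HIST1H2BD, HIST1H1C and HIST1H2BK are closer together and HIST1H3H lies lower.

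The promoters of the 4 histone genes with the highest differences are printed because the family is known to share promoter letters, in particular CCAAT boxes. They are the 250 bases before the start of each gene, 5′ to 3′ along the gene, from RefSeq on GRCh38.p14, with CCAAT or its reverse complement ATTGG in capitals. The windows are chr6:26157871-26158120 (plus strand) for HIST1H2BD, now named H2BC5, chr6:26123927-26124176 (minus) for HIST1H2BC, now H2BC4, chr6:26285535-26285784 (minus) for HIST1H4H, now H4C8, and chr1:228457874-228458123 (minus) for HIST3H2A, now H2AC25.
HIST1H2BD: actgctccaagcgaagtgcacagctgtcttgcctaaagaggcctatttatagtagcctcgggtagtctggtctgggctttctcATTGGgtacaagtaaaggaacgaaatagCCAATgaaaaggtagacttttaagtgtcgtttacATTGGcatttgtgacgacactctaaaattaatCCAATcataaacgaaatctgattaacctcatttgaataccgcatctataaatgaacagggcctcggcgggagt
HIST1H2BC: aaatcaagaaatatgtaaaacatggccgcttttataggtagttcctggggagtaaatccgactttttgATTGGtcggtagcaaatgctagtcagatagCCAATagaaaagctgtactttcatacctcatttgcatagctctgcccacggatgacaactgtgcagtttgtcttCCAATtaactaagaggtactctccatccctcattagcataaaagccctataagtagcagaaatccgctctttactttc
HIST1H4H: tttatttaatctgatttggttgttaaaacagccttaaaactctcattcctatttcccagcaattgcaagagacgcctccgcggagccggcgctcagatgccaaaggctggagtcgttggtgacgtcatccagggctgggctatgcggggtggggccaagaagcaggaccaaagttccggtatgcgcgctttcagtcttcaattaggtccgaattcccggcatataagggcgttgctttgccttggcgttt
HIST3H2A: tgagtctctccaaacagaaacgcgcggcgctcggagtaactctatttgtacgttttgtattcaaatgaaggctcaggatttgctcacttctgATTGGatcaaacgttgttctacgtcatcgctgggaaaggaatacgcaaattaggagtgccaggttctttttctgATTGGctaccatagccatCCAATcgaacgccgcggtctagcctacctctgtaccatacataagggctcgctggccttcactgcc
HIST1H2BD held 4 such boxes, HIST1H2BC and HIST3H2A held 3 each, and HIST1H4H held 0.

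Promoter letters were counted over windows from 250 bases before to 50 after each start, which RefSeq gave for 9546 of the genes kept. The letters CCAAT, on either strand, were in 18 of the 22 histone promoters (81.8%), in 46.9% of the 81 promoters of higher genes that matched, in 37.9% of the 66 of lower genes and in 37.2% of all. They were also in 62.1% of the promoters of the integrated stress response, 60.6% of the kinetochore and 59.2% of the replication promoters. At least 3 copies were in 68.2% of the histone promoters and in 5.02% of all. The histone windows had a median GC content of 43.8%, against 65.3% over all, 59% over the higher genes and 67.2% over the lower genes, and base content moves with such counts. The AP-1 letters TGANTCA were in 11.1% of the higher promoters, 6.06% of the lower and 4.32% of all. A match is a description of letters and not of a bound site.

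Genes that act on histone mRNA or on histone H4 lay mostly below the control. SLBP, which binds the stem-loop of histone mRNA, fell from 79.3 to 33.5 RPKM (-1.22 ± 0.059), and SETD8 fell as given above. The 3′ exonuclease ERI1, which trims the same stem-loop, went from 16.6 to 8.73 RPKM (-0.86 ± 0.073) and NPAT, the coactivator of histone transcription, from 4.72 to 3.09 RPKM (-0.48 ± 0.096). Of 15 genes of histone mRNA processing and lysine 20 methylation, 2 were called lower, 11 were below 0 and the median was -0.14. The share called lower over all genes kept was 0.7%. The 12 histone genes outside the clusters had 9 values below 0, none called and a median of -0.14. Among them were H2AFZ at 444 to 385 RPKM, H2AFX at 41 to 27.7 RPKM and H3F3B at 176 to 151 RPKM.

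Genes of DNA replication lay mostly below the control. PCNA, the sliding clamp of the DNA polymerases, fell from 194 to 71.9 RPKM (-1.42 ± 0.048) and was the single call among 56 replication genes. Of the 56, 49 were below 0 and the median was -0.22, beside 0.03 over all genes. The polymerase alpha subunit POLA2 went from 18.6 to 10.2 RPKM (-0.80 ± 0.077) and MCM10, which loads at origins, from 23.5 to 14.2 RPKM (-0.68 ± 0.061). Of the MCM helicase, MCM6 had -0.70, MCM2 -0.47 and MCM4 -0.47, and the 10 genes whose symbols start with MCM had the lowest median, -0.31, of 129 symbol families with 10 genes or more. The highest of the 7 above 0 were the polymerase delta subunit POLD4 (0.46) and the fork protection protein TIPIN (0.24).

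Enzymes that supply nucleotides followed the same direction without a call. Of 22 genes, 19 were below 0, with a median of -0.23. RRM2, the limiting subunit of ribonucleotide reductase, went from 75.1 to 48.8 RPKM (-0.61 ± 0.041), thymidylate synthase (TYMS) from 112 to 78 RPKM (-0.52 ± 0.047) and IMPDH2, of guanine nucleotide synthesis, from 100.5 to 70.7 RPKM (-0.50 ± 0.049). CTPS (0.04), DCK (0.04) and UMPS (0.14) were the 3 above 0. In Huh1 the medians were closer to 0, -0.05 for the replication genes and -0.06 for the nucleotide enzymes. Of 29 genes of homologous recombination and Fanconi repair none was called, 19 were below 0 and the median was -0.07, with RAD54L at 12.9 to 8.62 RPKM and BRCA1 at 8.92 to 7.62 RPKM.

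The E2F factors, which take part in the control of S phase transcription, held no call among 20 genes with their pocket proteins. E2F8 went from 12.7 to 7.69 RPKM (-0.66 ± 0.094) and E2F5 from 19.5 to 11.5 RPKM (-0.71 ± 0.11), while E2F1 (-0.09), FOXM1 (0.01) and MYBL2 (-0.01) stayed within 0.1 of 0. The letters TTTGGCGC of the E2F element, searched on both strands, were in 14.3% of the replication promoters, 3.03% of the lower, 0% of the higher and 1.13% of all.

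Among 24 cyclins, cyclin-dependent kinases and their regulators, CCNC was the one lower call and CDK14 the one higher call. The shares over all genes kept were 0.7% lower and 0.873% higher. CDK14, a kinase activated by cyclin Y at the cell membrane, rose from 5.26 to 12.6 RPKM (1.11 ± 0.083), and CDK6, a kinase of the G1 phase, went from 8.85 to 16.9 RPKM (0.86 ± 0.046). Of the 24, 16 were below 0 and 8 above, with a median of -0.16. Below 0 were CDK1 at 45.1 to 29.3 RPKM (-0.60 ± 0.068), the phosphatase CDC25A at 25.7 to 16 RPKM (-0.65 ± 0.064), CCNB1 at -0.18 and CCNA2 at -0.18. CDK2 (0.12) and CDK4 (-0.02) were close to the control. Of 7 inhibitors, CDKN2B (p15) rose from 5.02 to 13.5 RPKM (1.26 ± 0.20). Its neighbour CDKN2A went from 13.3 to 8.29 RPKM (-0.62 ± 0.15), CDKN1B (p27) from 49.5 to 40.1 RPKM (-0.30 ± 0.053) and CDKN1A (p21) from 3.66 to 5.63 RPKM (0.51 ± 0.15), so the inhibitors did not share a direction.

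Mitotic genes outside the passenger complex lay below 0 in most members of 3 of the 4 groups, with few calls. NUSAP1, which bundles spindle microtubules near chromosomes, fell from 95.3 to 32.8 RPKM (-1.51 ± 0.064) and was the one call among 35 spindle genes, 25 of which were below 0 (median -0.15). None of 42 kinetochore and checkpoint genes was called, 33 were below 0 and the median was -0.11. CENPM went from 18.6 to 11.4 RPKM (-0.66 ± 0.16) and the checkpoint protein BUB3 from 89.2 to 64.6 RPKM (-0.46 ± 0.024), against SKA2 at 0.60 and ZW10 at 0.57. Of 17 condensin, cohesin and topoisomerase II genes 13 were below 0 and none was called, with NCAPG at 51.1 to 31.5 RPKM (-0.68 ± 0.042) and TOP2A at 124 to 93.2 RPKM (-0.41 ± 0.023). The 16 genes of cytokinesis and the spindle midzone had a median of 0.12 with 9 above 0 and none called. CEP55, the scaffold of abscission, had -0.52 while PRC1, which bundles midzone microtubules, had 0.25. The letters TTTGAA of the CHR element, which many late cell cycle promoters hold, were in 45.5% of the kinetochore promoters, 45.5% of the clustered histone promoters, 19.8% of the higher, 15.2% of the lower and 9.81% of all, on either strand.

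Within the nuclear lamina list, LMNB1 was the one call of 16 genes. Other lamina genes were spread around 0, with TMPO, a lamin-binding protein, at 88.8 to 57.6 RPKM (-0.62 ± 0.033), LMNB2 at 0.05 and LMNA, which encodes lamins A and C, at 96.9 to 144 RPKM (0.57 ± 0.03). The B-type lamins thus differed, as LMNB1 fell and LMNB2 stood within 0.1 of 0. VTA1 was likewise alone among 16 genes of ESCRT-III and its disassembly. VPS4A (0.09), VPS4B (0.24) and CHMP4B (0.08) were near the control, and CHMP6 had -0.45.

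Actin-associated genes were mostly above the control. Of 35 such genes 29 were above 0, 4 were called higher, 1 was called lower and the median was 0.26. Over all genes kept 0.873% were called higher, 0.7% lower and 54.5% were above 0, with a median of 0.03. Beside TPM4, the actin filament protein nexilin (NEXN) rose from 7.35 to 18.8 RPKM (1.24 ± 0.10), calponin (CNN1) from 6.67 to 15.3 RPKM (1.09 ± 0.13) and transgelin (TAGLN) from 21.4 to 44.4 RPKM (1.02 ± 0.11). ZYX, or zyxin, a focal adhesion protein, was the one that fell, from 128 to 62.2 RPKM (-1.02 ± 0.04). LIMA1 went from 39.9 to 72.4 RPKM (0.84 ± 0.041), the light chain MYL9 from 50.6 to 78.4 RPKM (0.62 ± 0.044) and the transcription factor SRF, which controls many of these genes, from 14.6 to 22.6 RPKM (0.60 ± 0.064). The actins themselves were near the control, with ACTB at 0.14 and ACTG1 at -0.01, although smooth muscle gamma actin (ACTG2), a low gene outside the list, rose from 1.87 to 6.27 RPKM (1.34 ± 0.20). Over the 32 members kept in both lines the medians were 0.27 in Huh7 and 0.26 in Huh1, with 28 above 0 in Huh1, although CNN1 was under 0.05 RPKM there. ACTA2, an actin that also marks stellate cells, went from 0.72 to 1.06 RPKM in Huh7.

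Of 20 tubulin genes one was called. TUBA1A rose from 118 to 258 RPKM (1.12 ± 0.033), and its difference in Huh1 was 0.06. The beta tubulins TUBB2A and TUBB2B, which are near-identical and may share reads, had 0.62 ± 0.046 and 0.65 ± 0.042, while the more abundant TUBB (1041 to 927 RPKM) and TUBA1B (1246 to 1126 RPKM) had -0.17 and -0.15. NES, the intermediate filament protein nestin, rose from 106 to 214 RPKM (1.0 ± 0.021), whereas the keratins KRT8 and KRT18 went from 2133 to 1569 RPKM and from 1938 to 1382 RPKM. Keratins lay on opposite sides of 0 in the lines, at -0.44 and -0.49 in Huh7 and 0.11 and 0.25 in Huh1. None of 16 epithelial and mesenchymal markers was called, with the mesenchymal vimentin (VIM) at 0.22 and E-cadherin (CDH1) at 15.8 RPKM in both libraries.

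Immediate early and growth factor genes held several calls, where 0.873% of all genes kept were called higher and 0.7% lower. Among 27 genes of the FOS and JUN families and the feedback on MAP kinases, FOSL1, a partner of JUN in AP-1, rose from 7.86 to 18.6 RPKM (1.14 ± 0.12) and the ERK phosphatase DUSP5 from 26.7 to 58.4 RPKM (1.1 ± 0.059). ZFP36L2, which destabilizes mRNAs, fell from 29.4 to 12.8 RPKM (-1.14 ± 0.067), and the phosphatase DUSP9 fell from 107 to 49.980 RPKM (-1.09 ± 0.046). The list had 20 genes above 0 and a median of 0.29, with JUN at 24.7 to 37.9 RPKM (0.60 ± 0.055), FOSL2 at 4.34 to 9.06 RPKM (0.91 ± 0.078) and FOS at 1.06 to 2.53 RPKM (0.77 ± 0.19), while JUNB had -0.52. Its median in Huh1 was 0.52.

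Of 8 EGF family ligands and receptors kept, EREG and HBEGF were called higher, where 0.873% of all genes kept were. Among the 8, 2 passed the filter with CDCA8siRNA alone. HBEGF rose from 4.09 to 10.1 RPKM (1.13 ± 0.13). EGFR, their receptor, went from 44.2 to 55.4 RPKM (0.32 ± 0.026), while ERBB3 went from 15 to 9.29 RPKM (-0.64 ± 0.065) and ERBB2 from 10.5 to 7.27 RPKM (-0.47 ± 0.083). Of 19 genes of the YAP and TEAD pathway, CAV1 (23.2 to 53.1 RPKM) and CYR61 (113 to 229 RPKM) rose. CTGF, often read together with CYR61, went from 92.4 to 79.4 RPKM (-0.22 ± 0.041), and ANKRD1 from 157 to 178 RPKM (0.19 ± 0.032). In Huh1 the same genes had 1.0 and 1.27. The list's median over the 19 genes was 0.16 in Huh7. Over the 17 members kept in both lines it was 0.19 in Huh7 and 0.43 in Huh1. YAP1 itself had -0.46 in Huh7.

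The KLF family had 10 of 12 genes above 0, none called and a median of 0.26, led by KLF6 (22.5 to 42.8 RPKM, 0.90 ± 0.049). Chemokines and feedback genes of NF-kB had 14 of 18 above 0 and a median of 0.31, also without a call. Interleukin 8 (IL8) went from 84.9 to 151 RPKM (0.83 ± 0.042), CCL2 from 3.29 to 7.2 RPKM (0.93 ± 0.26), BIRC3, an inhibitor of apoptosis, from 4.1 to 8.74 RPKM (0.93 ± 0.099) and the subunit NFKB2 from 23 to 39.5 RPKM (0.76 ± 0.06). Of these, NFKB2 and BIRC3 had -0.13 and 0.03 in Huh1. Over the 15 members kept in both lines the list's median was 0.27 in Huh7 and 0.02 in Huh1. Interferon-stimulated genes were mixed, with 16 of 25 above 0, none called, and MX2 at 0.76. The guanylate-binding proteins GBP1 (5.76 to 13.6 RPKM) and GBP3 (0.378 to 2.09 RPKM), which are outside the list, were called higher. GBP3 passed the filter through the CDCA8siRNA library alone.

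Of 25 TGF-beta genes kept 4 were called lower, where 0.7% of all genes kept were. INHBB (-1.63), the hepatic activin subunit INHBE (25.5 to 11.6 RPKM, -1.08 ± 0.088), the receptor TGFBR1 (7.09 to 2.71 RPKM, -1.13 ± 0.089) and the BMP target ID2 (153 to 75.8 RPKM, -1.0 ± 0.049) fell. The remaining ligands and SMADs were spread around 0, so that the median was -0.02. TGFB1 had 0.27, TGFBR2 0.03 and SMAD4 -0.34. In Huh1 INHBE and INHBB were low genes, at 1.24 to 0.756 RPKM and 0.889 to 1.07 RPKM. No beta-catenin pathway gene of 19 was called, with DKK1, a Wnt inhibitor, at 59.3 to 37.5 RPKM (-0.65 ± 0.063; 1.13 in Huh1) and the stem cell receptor LGR5 at 9.43 to 5.35 RPKM (-0.71 ± 0.09). Of 10 liver cancer stem cell markers none was called, and the surface proteins EPCAM (0.10) and CD24 (-0.09) and the aldehyde dehydrogenase ALDH1A1 (0.26) were among them.

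Stress pathways did not move as a block. Of 33 genes of the integrated stress response, FGF19 rose and CEBPG, a partner of ATF4, fell from 39.7 to 19 RPKM (-1.02 ± 0.054), with 20 genes above 0 and a median of 0.05. TRIB3 went from 25.2 to 36.3 RPKM (0.51 ± 0.065), DDIT3, which encodes CHOP, from 16 to 19.3 RPKM (0.26 ± 0.14), and the amino acid carrier SLC7A5 from 132 to 95.9 RPKM (-0.46 ± 0.026). The ATF4 letters TGATGNAA, on either strand, were in 27.6% of the promoters of this list, 2.47% of the higher, 1.52% of the lower and 1.68% of all. Of 29 genes of folding in the endoplasmic reticulum CKAP4 alone was called, 20 were below 0 and the median was -0.05, with the chaperone HSPA5 at 274 to 205 RPKM (-0.41 ± 0.019) and CALR at 712 to 803 RPKM (0.17 ± 0.015). FKBP4 was alone in the same way among 41 chaperones, 31 of which were below 0 (median -0.14), with HSP90AB1 at 843 to 679 RPKM and CCT3 at 427 to 287 RPKM. FKBP1A, the FK506-binding protein FKBP12, which was not in that list, fell from 152 to 54.1 RPKM (-1.47 ± 0.05). HMOX1, or heme oxygenase, rose from 6.39 to 16.2 RPKM (1.21 ± 0.13), and the ferritin chain FTH1 went from 1871 to 2450.1 RPKM (0.39 ± 0.011).

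Of 27 p53 target genes, BTG2, an antiproliferative gene, rose from 13.1 to 31.3 RPKM (1.2 ± 0.078), and its difference in Huh1 was 0.12. The others had 17 values above 0 and 9 below. GADD45A went from 37.2 to 55.1 RPKM (0.56 ± 0.099), PLK2 from 19.5 to 35.9 RPKM (0.85 ± 0.065), MDM2 from 19.8 to 17.8 RPKM (-0.14 ± 0.036) and BAX from 53.6 to 45.2 RPKM (-0.24 ± 0.07). CASP9, the initiator caspase of the mitochondrial route, went from 7.57 to 7.49 RPKM (-0.01 ± 0.13). BNIP3, a mitophagy receptor, went from 368 to 230.5 RPKM (-0.67 ± 0.02).

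Zinc finger genes shared a small difference above 0. Of 400 ZNF genes kept, 314 were above 0, with a median of 0.26 beside 0.03 over all genes. Few crossed the 2-fold line, 5 higher and 1 lower, against a background of 0.873% and 0.7%. ZNF468 rose from 6.63 to 16 RPKM (1.16 ± 0.069), ZNF429 from 1.88 to 5.13 RPKM (1.09 ± 0.17) and ZNF267 from 3.34 to 8.04 RPKM (1.06 ± 0.12), while ZNF706, a short protein without the array of fingers, fell from 19 to 8.23 RPKM (-1.12 ± 0.097). All 21 kept genes of the KRAB zinc finger cluster at 19p12, a family of repressors of retroelements, were above 0, with a median of 0.63 and 2 called. They ranged from ZNF43 (3.36 to 4.25 RPKM, 0.27 ± 0.14) to ZNF429, with ZNF91, known to repress SVA elements, at 5.69 to 11.3 RPKM (0.88 ± 0.079) and ZNF257 at 2.1 to 5.19 RPKM (1.0 ± 0.12). In Huh1, 19 of the 21 were kept, all above 0, with a median of 0.56. Over all 498 ZNF genes in the files, kept or not, 372 were above 0 and 111 below, with a median of 0.20, and 17 of the 400 passed the filter through CDCA8siRNA alone against 2 through NCsiRNA alone. The genes of the cluster are alike in sequence, so reads can be shared among them and the 21 are not independent.

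The place of the genes went with these values. ZNF genes on chromosome 19 numbered 189, with a median of 0.37 and 91.0% above 0. The 211 ZNF genes on other chromosomes had a median of 0.15 and 67.8% above 0, and the 618 other genes of chromosome 19 had 0.06 and 59.2%. Chromosome 19 as a whole had the highest median of all chromosomes, 0.11, and the highest share above 0, 66.7%. Chromosome 6, which holds the large histone cluster, had the most higher calls, 15 of 610 genes. The X chromosome had 0 higher and 7 lower calls of 341. Among all genes kept 0.873% were called higher and 0.7% lower. The higher calls of chromosome 6 include clustered histone genes, from whose count no support is drawn.

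Level and length moved with the sign of the differences over all genes. By deciles of mean level, the share above 0 was 61.8% in the lowest (up to 2.04 RPKM) and 43.0% in the highest (from 64.6 RPKM), and higher calls numbered 13 and 4 while lower calls numbered 6 and 13. By length, the share above 0 was 49.5% in the quartile with the shortest transcripts and 60.3% in the quartile with the longest. The shortest quartile held 43 of the higher and 34 of the lower calls. The part of level and length in the values of the ZNF and histone genes was not tested.

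Products of the hepatocyte lay mostly below the control. Of 17 liver plasma proteins 14 were below 0, 2 were called lower and the median was -0.51. The share called lower over all genes kept was 0.7%. GC (-1.65 ± 0.11) and the kininogen KNG1 (3.14 to 0.799 RPKM, -1.2 ± 0.18) fell. KNG1 passed the filter through the NCsiRNA library alone. Albumin (ALB) had -0.69 ± 0.013 and transferrin (TF) had -0.64. The acute phase protein ORM1 went from 167 to 86.5 RPKM (-0.94 ± 0.06). Transthyretin (TTR), a carrier of thyroid hormone, went the other way, from 29.3 to 48.5 RPKM (0.71 ± 0.096). The summed level of the list was 4241 RPKM with NCsiRNA and 3044 RPKM with CDCA8siRNA. The 12 hepatocyte markers behind the check of the cells, several of them in this list, summed to 3612 and 2531 RPKM, with 10 below 0 and none called, and their part in these values was not tested. The Huh1 median of the plasma proteins was -0.43, with 15 of 17 below 0, but TTR had -0.15 there.

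Apolipoproteins, complement and serpins added a single call each, and none of 21 coagulation and fibrinolysis genes was called. APOC3, an inhibitor of lipoprotein lipase, fell from 9.998 to 3.36 RPKM (-1.33 ± 0.28), SERPINA7, the thyroxine-binding globulin, from 5.29 to 1.53 RPKM (-1.31 ± 0.20), and CD46, a complement regulator on the cell surface, from 108 to 44.5 RPKM (-1.26 ± 0.039). APOB, the protein of very low density lipoprotein, went from 130.2 to 74.2 RPKM (-0.80 ± 0.016), complement C5 from 122 to 64.7 RPKM (-0.90 ± 0.027) and the antiplasmin gene SERPINF2 from 54 to 27.3 RPKM (-0.96 ± 0.062). The 3 fibrinogen chains stayed together, with FGA at -0.50, FGB at -0.38 and FGG at -0.47. APOE (0.29) and the surface regulator CD59 (0.33) were above 0. The asialoglycoprotein receptor subunit ASGR1, a hepatocyte surface lectin, fell from 10.5 to 4.02 RPKM (-1.19 ± 0.16).

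Of 24 hepatocyte transcription factors 18 were below 0, with a median of -0.25. Called lower were 2 of the 24, beside a background of 0.7%. CEBPA fell from 68.9 to 30.3 RPKM (-1.16 ± 0.054), and NR0B2 fell as given above although it was at 5.7 to 8.47 RPKM in Huh1. HNF4A, a central factor of the liver network, went from 55.4 to 38.8 RPKM (-0.50 ± 0.033), PROX1 from 55.9 to 32.4 RPKM (-0.77 ± 0.051) and NR5A2 from 21.4 to 11.9 RPKM (-0.79 ± 0.079), while FOXA1 (0.23) and ONECUT2 (0.52) were above 0.

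Nitrogen metabolism held several lower calls. Of 9 kept genes of the urea cycle and ornithine transport 3 were called lower, beside a background of 0.7%, and 7 were below 0. Beside SLC25A15, arginase (ARG1) fell from 6.18 to 1.58 RPKM (-1.48 ± 0.20) and glutamate dehydrogenase (GLUD1) from 106 to 50.8 RPKM (-1.05 ± 0.04). The citrin gene SLC25A13 went from 34.8 to 23.7 RPKM (-0.54 ± 0.06), while ASL (0.08) and OAT (-0.09) were near the control. SLC38A3, a glutamine carrier, fell from 6.28 to 1.69 RPKM (-1.43 ± 0.14) and was at 0.02 RPKM or less in Huh1. In tryptophan breakdown kynureninase (KYNU) rose from 8.08 to 21.5 RPKM (1.31 ± 0.12), with 175 to 179.7 RPKM in Huh1.

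Glycolysis and hypoxia-regulated genes were read from lists that share members by their making, among them PFKFB4 and SLC2A1. PGK1 and LDHA are in the glycolysis list and not in the hypoxia-regulated list. Phosphoglycerate kinase (PGK1) fell from 362 to 175 RPKM (-1.05 ± 0.017) and PFKFB4, a regulator of fructose 2,6-bisphosphate, from 22.2 to 10.5 RPKM (-1.01 ± 0.076), whereas LDHB rose. LDHA went from 1396 to 913 RPKM (-0.61 ± 0.013), the glucose carrier SLC2A1 from 33.9 to 20.3 RPKM (-0.71 ± 0.058) and ALDOA from 449.9 to 314 RPKM (-0.52 ± 0.024). Of 28 glycolysis genes 17 were below 0 (median -0.18), and of 20 hypoxia-regulated genes 15 were below 0 (median -0.17), among them carbonic anhydrase 9 (CA9), from 13.9 to 7.08 RPKM (-0.88 ± 0.13). VEGFA had -0.13. In Huh1 the hypoxia list had a median of 0.12. Of 36 genes of cholesterol and fatty acid synthesis the polyunsaturated fatty acid desaturase FADS1 fell from 39.6 to 17.9 RPKM (-1.1 ± 0.053), the desaturase SCD had -0.40, and the median was -0.13, against 0.11 in Huh1.

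Enzymes of drug and hormone metabolism gave calls at low levels. The cytochrome CYP1B1 rose from 1.53 to 4.35 RPKM (1.08 ± 0.11) and the glucuronosyltransferase UGT2B11 from 2.35 to 6.27 RPKM (1.12 ± 0.16). The estrogen sulfotransferase SULT1E1 rose from 0.371 to 1.88 RPKM (1.07 ± 0.20). SULT1E1 passed the filter through the CDCA8siRNA library alone, where it is high, and no support is drawn from its call. Of 13 cytochrome P450 genes kept 1 was called higher. Of 19 conjugating enzymes kept 2 were, where 0.873% of all genes kept were called higher. CYP1A1 went from 8.55 to 6.88 RPKM (-0.28 ± 0.11), and UGT2B4 from 7.99 to 3.84 RPKM (-0.89 ± 0.15). Of the 8 metallothioneins kept none was called, and MT2A, the most abundant, had 0.03.

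Matrix genes lay mostly above the control. Of 28 collagens and laminins kept 24 were above 0, 2 were called higher and the median was 0.26, while 31 other members stayed under the filter. Over all 59 members in the files 42 were above 0 and 15 below, with a median of 0.09. Among all genes kept 0.873% were called higher and 54.5% were above 0. The laminin chain LAMA3 rose from 1.53 to 4.17 RPKM (1.03 ± 0.11) and NTN4 from 3.67 to 8.5 RPKM (1.02 ± 0.11), and tenascin C (TNC), outside the list, rose from 1.97 to 5.82 RPKM (1.2 ± 0.088). COL1A2 had 0.84 ± 0.038, COL12A1 went from 25.1 to 42.7 RPKM (0.74 ± 0.029) and COL18A1 from 76.6 to 76.5 RPKM. The 13 members kept in both lines had a median of 0.32 in Huh7 and 0.10 in Huh1. The fibroblast and stellate cell markers, which include collagen genes of this list, had the sums of 284 and 378 RPKM given above, and their part in these values was not tested. Integrins held no call, with ITGB1 at -0.01 and ITGAV at 0.38. Of the metalloproteases and their inhibitors ADAM23, which binds integrins, rose from 5.31 to 12.8 RPKM (1.13 ± 0.073).

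Large housekeeping groups set the scale for the lists above, and the plot of gene lists places them together. The 82 cytosolic ribosomal protein genes held no call, with 58 below 0 and a median of -0.08. Of 75 mitochondrial ribosomal proteins MRPL20 alone was called, falling from 98.4 to 42.2 RPKM (-1.2 ± 0.088), and of 84 subunits of oxidative phosphorylation ATP5C1 alone, falling from 245 to 119.9 RPKM (-1.02 ± 0.042). Neither 37 proteasome subunits nor 37 aminoacyl-tRNA synthetases nor 42 splicing factors of the SR and hnRNP kinds held a call, with medians of -0.06, -0.06 and -0.11. Among 14 common reference genes PGK1 was called, GAPDH went from 3805 to 2944 RPKM (-0.37 ± 0.0074), ACTB from 3372 to 3709.6 RPKM, B2M from 514 to 674 RPKM (0.39 ± 0.025) and TBP from 13.2 to 15.2 RPKM (0.19 ± 0.10), with a median of -0.01.

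**Figure D5:**
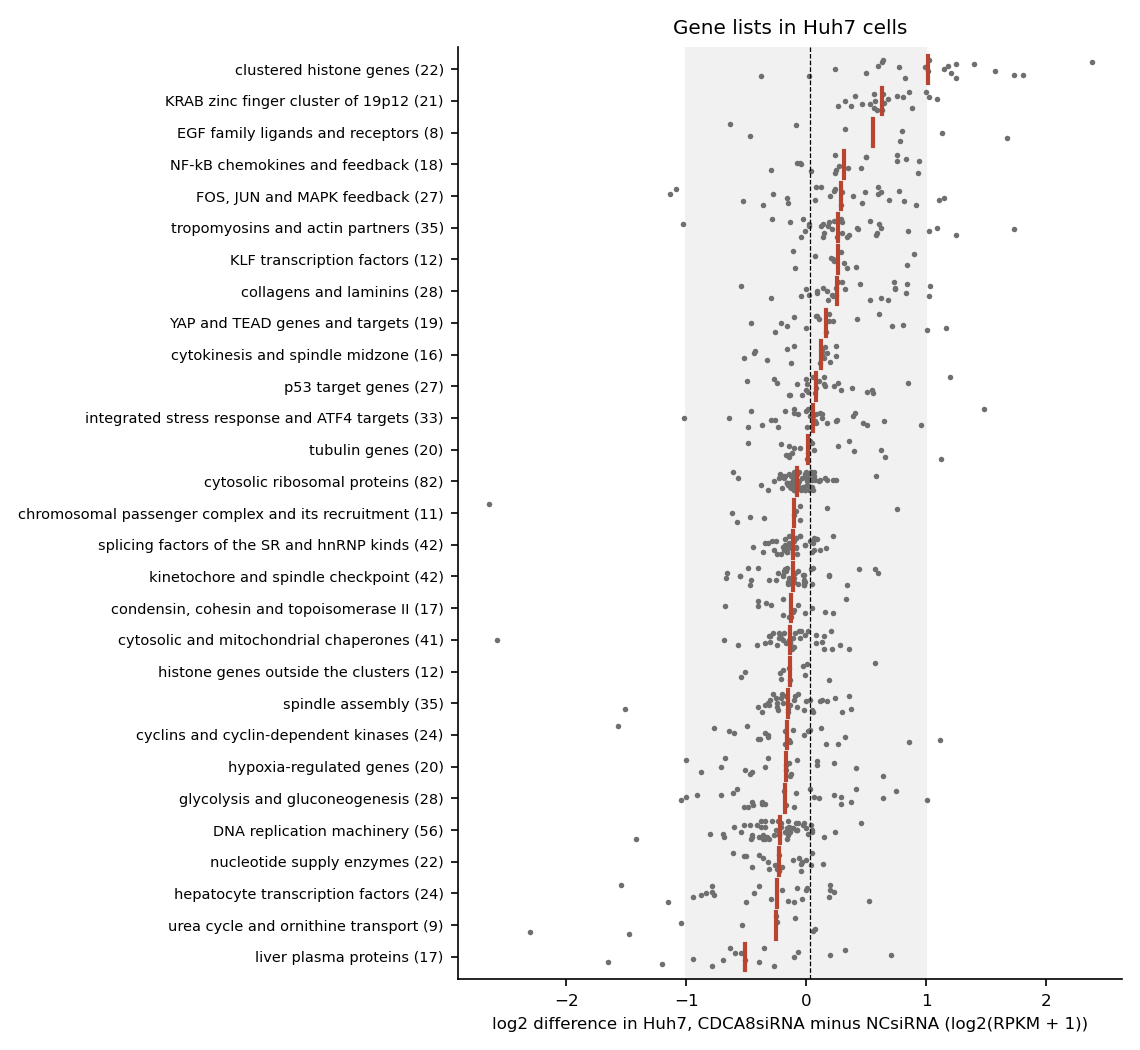
Log2 difference in Huh7 (CDCA8siRNA minus NCsiRNA, on log2(RPKM + 1)) of each kept gene (grey points) in 29 gene lists, with the number of genes in brackets, the list median in red, the median of all genes dashed and differences under 2-fold shaded. Clustered histone genes lie highest (median 1.02, with 13 of the 22 passing the filter through CDCA8siRNA alone) and liver plasma proteins lowest (median -0.51), while single points such as CDCA8, FKBP4 and SLC25A15 lie far to the left of their lists.

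Other lists stayed close to the background. Of 15 iron genes HMOX1 was the one call, with the transferrin receptors TFRC at 188 to 120.2 RPKM (-0.64 ± 0.021) and TFR2 at 7.38 to 3.75 RPKM (-0.82 ± 0.13) and the exporter SLC40A1 at 81 to 128 RPKM (0.65 ± 0.031). Of 184 solute carriers 2 were called lower, SLC25A15 and SLC38A3, and none higher, with 87 above 0 and 97 below. Of 26 ABC transporters and 21 genes of fatty acid oxidation and ketogenesis none was called, with medians of -0.08 and -0.05. In MHC class I presentation, 9 of 15 genes were above 0 and none was called, TAPBP, which loads peptides, standing at 0.53 and the stress ligand MICB at -0.71. Of 11 oncofetal liver cancer markers IGF2 was the one call, while the alpha-fetoprotein gene (AFP) went from 865 to 715 RPKM (-0.27 ± 0.013) and IGF2R, which clears IGF2, from 46.5 to 71.7 RPKM (0.61 ± 0.02).

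The remaining calls lay outside the lists. HDAC9, a class IIa histone deacetylase, rose from 6.18 to 17.3 RPKM (1.35 ± 0.11), the H3K4 methyltransferase SETD7 from 16.6 to 40.6 RPKM (1.25 ± 0.042), and the dynein adaptor BICD2 from 6.06 to 15.7 RPKM (1.24 ± 0.069). TNFRSF9, the T cell costimulatory receptor also known as CD137, rose from 1.76 to 5.77 RPKM (1.29 ± 0.10) and the natural killer cell receptor KLRC2 from 5.37 to 15 RPKM (1.32 ± 0.16). KLRC2 and KLRC3 (1.36 to 4.69 RPKM) are closely related neighbours whose reads may be shared. On the lower side, GCH1, the first enzyme of tetrahydrobiopterin synthesis, fell from 5.47 to 1.31 RPKM (-1.48 ± 0.15), the lysosomal acid lipase LIPA from 21.4 to 8.31 RPKM (-1.26 ± 0.092), the splicing regulator MBNL3 from 37.1 to 12.5 RPKM (-1.5 ± 0.10) and the kinesin KIF3B from 26.3 to 11 RPKM (-1.19 ± 0.056). SMARCD3, a subunit of SWI/SNF chromatin remodelers, fell from 24 to 10.5 RPKM (-1.11 ± 0.1). These genes of no list were chosen after their values were seen.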

How the data were processed

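RNA was taken from Huh7 cells with Trizol, and libraries were made from 1 ug of total RNA with an Illumina TruSeq RNA kit. The authors deposited 1 table per library with a value for each RefSeq transcript, whose unit the table does not name. The deposited values are taken here as RPKM, since they fall on multiples of 1 read after multiplication by transcript length. The submitters' processing notes name CASAVA 1.8.2, TopHat2 2.0.9 and hg19, and the counter, annotation and strand setting are not given in the sources used here. Transcript lengths and gene positions came from GENCODE release 29 (GRCh38), with lengths matched by RefSeq accession for 17768 rows, by symbol for 443 and missing for 187. Read numbers, estimated from the value of 1 read, were 12197606 and 12266642 for Huh7 and 13384836 and 13193713 for Huh1.

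Genes with 1 RPKM or more in at least 1 library of a line were kept, and differences of log2(RPKM + 1) of 2-fold or more were called. With 1 library per condition no test was run, and the counting SD came from the read numbers alone. The rule for named genes took the 15 highest and 15 lowest differences, CDCA8, the genes the study names and, from each gene list, up to 6 members with the largest differences and up to 4 with the highest level. The genes and lists were chosen with earlier results of these data known. Genes named outside the rule, chosen after their values were seen, were ACTG1, ACTG2, ALDOA, ASGR1, ASL, BICD2, BRCA1, C2orf82, CD59, CDH1, CDK2, CER1, CTPS, DCK, DDIT3, DTD1, E2F1, FKBP1A, FOS, FOXA1, GBP1, GBP3, GCH1, GNG2, GSG2, HDAC9, HIST1H2BH, JUN, JUNB, KIF3B, KLRC2, KLRC3, KRTAP19-5, LIPA, LOXL4, LY96, MBNL3, MCM2, MCM4, MDM2, MYL9, NES, NOLC1, ONECUT2, POLD4, PTPRC, SETD7, SLC7A5, SMAD4, SMARCD3, SPP1, SRF, TBP, TGFB1, TGFBR2, TIPIN, TNC, TNFRSF9, UMPS, VEGFA and ZNF43. Some genes are not reported here. Other pseudocounts, filters and scalings were tried. Python 3.11.15 with numpy 2.4.6, pandas 2.3.3, scipy 1.17.1 and matplotlib 3.10.9 was used, and the scripts were tested on simulated data.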

Additional observations from a re-analysis of the deposited data

Results flagged for a closer look

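Of the genes called in Huh7 and kept in Huh1, with 1 RPKM or more in at least 1 Huh1 library, 14 had a difference of the opposite sign in Huh1, and the difference between the lines was not tested, since each line has 1 library per condition. Among the genes higher in Huh7, the Huh1 values were -1.21 for HIST1H3H, -0.27 for ABLIM3, -0.119 for HIST1H2BJ, -0.112 for HIST1H2BK, -0.059 for HIST1H1C and -0.047 for SPP1. They were -0.018 for C12orf39, -0.0084 for HBEGF, -0.0026 for HIST1H2AD and -0.0023 for NR6A1. Among the genes lower in Huh7, the Huh1 values were 1.10 for KRTAP19-5, 0.498 for NR0B2, 0.347 for SMARCD3 and 0.134 for INHBB. Of these 14 genes, 5 were clustered histones, and all but HIST1H3H, KRTAP19-5, NR0B2, SMARCD3 and ABLIM3 were within 0.15 of 0 in Huh1. The medians of 2 gene lists also had opposite signs and were at least 0.1 in size in both lines, with 0.112 in Huh1 for cholesterol and fatty acid synthesis and 0.119 in Huh1 for hypoxia-regulated genes, against -0.13 and -0.17 in Huh7. These differences were not tested either.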

How the results depend on the processing

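With a pseudocount of 0.1 RPKM in place of 1, 269 genes were at least 2-fold higher and 153 lower, and with 0.5 RPKM 160 were higher and 103 lower, since a smaller pseudocount gives low genes larger differences. The share of calls on the higher side was 63.7% at 0.1 RPKM and 60.8% at 0.5 RPKM, against 55.5% as reported. Without a filter the counts were 101 and 81, and with a minimum of 5 RPKM they were 78 and 73 of 8919 genes. Scaling to the upper quartile gave 108 and 76, with 177 of the 182 calls shared, and quantile normalization gave 83 and 83, with 158 shared, which moved the median of all genes from 0.03 to 0. No reported call changed sign under these 6 alternatives. The medians of 13 gene lists changed sign under at least 1 alternative. With the minimum of 5 RPKM those of tryptophan breakdown, interferon-stimulated genes, the cyclin-dependent kinase inhibitors and cytochrome P450 genes became -0.23, -0.15, -0.10 and -0.11, each above 0 as reported. The cause was not tested. At this depth low genes rested on few reads, and the spread between cultures is unknown. No paired analysis was possible because each condition has 1 library, and for the same reason no replicate could be left out.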
